A study of Mus musculus with 10 samples.

Results

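Macrophages seed the mouse embryo before the blood system matures, and the genes examined here are 30 that such embryonic macrophages are known to express. Each gene was found by its symbol in the array's platform annotation, and where several probe sets shared a symbol the brightest on average was to be used. All 30 were measured, each by only 1 probe set, out of 19938 genes with such a probe set. The tissue was the periotic tissue of embryos at embryonic day 12.5, that is, the otic vesicle with the mesenchyme around it, microdissected and measured on Affymetrix Mouse Gene ST 1.0 arrays. The 5 mutants were T-Cre conditional Tbx1 knockouts, and the 5 controls were T-Cre conditional Tbx1 heterozygotes. Both groups thus carried T-Cre, a recombinase driven in the early mesoderm, and the controls were themselves heterozygous for Tbx1, so no wild type stands among them. T-Cre leaves Tbx1 in the epithelium of the otic vesicle, which is not of mesodermal origin. Each array held the pooled left and right tissue of 1 embryo. The labels do not say whether T-Cre acted in the macrophages of these embryos.

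Embryonic macrophages arise from yolk sac and later fetal progenitors under the transcription factor PU.1 (Spi1) and depend on the receptor CSF1R, which binds the cytokines CSF1 and IL-34. They spread along vessels and through mesenchyme, clear dying cells, and prune or guide growing tissue, also around the inner ear. Their genes fall into a few roles: lineage and identity, scavenging at vessels, the C1q proteins of complement, Fc receptors with the adaptors that signal for them, and the machinery of phagocytosis.

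The signal of Tbx1 itself (probe set 10438347), as a check of the labels, was 7.83 ± 0.36 in the mutants and 8.71 ± 0.31 in the controls on the log2 scale (SD, n = 5 each). Mutant 1, at 8.40, overlapped the controls, whose lowest array read 8.23. Tbx1 missed the threshold over all probe sets, with an adjusted p of 0.451 by limma. The arrays were normalised by the authors to a common distribution, and their medians lay between 6.19 and 6.27. Array weights, a measure of how well an array follows its group, were lowest in mutant 5 (0.497) and control 1 (0.660).

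Macrophage genes were detectable in the tissue of every embryo. Background was set at a log2 signal of 5.43, the 95th percentile of 1216 probe sets for odorant, vomeronasal and trace amine receptors, whose median was 3.73. Of the 30 genes, 22 exceeded it in all 10 arrays. These included Csf1r, the macrophage scavenger receptor Mrc1 (CD206), the macrophage surface antigen gene Adgre1, Cx3cr1 and all C1q genes. Aif1, which encodes the actin-binding protein IBA1, Cd163, a haemoglobin scavenger receptor, and Ms4a7, a membrane protein of the MS4A family, were not above background in any array. The other 5 genes crossed it in some arrays: Itgam in 3 mutants and 2 controls, Ms4a4a in 4 mutants and 5 controls, Fcgr3 in 5 mutants and 4 controls, Cd14 in 1 mutant and 2 controls, and Cybb in 1 mutant and 0 controls. No filter on low signal was applied, so all 30 entered the comparison.

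No macrophage gene differed between mutants and controls beyond the threshold. Of the 30 genes 0 passed limma's test at an adjusted p of 0.05, against 0.00918% of all 21789 probe sets, and the smallest adjusted p among them was 0.575. At an unadjusted p under 0.05 there was 1 gene, Pf4, where the share over all genes was 7.82%. The groups overlapped for all 30 genes, whereas 1.83% of all genes had groups that did not overlap. Between arrays of the same number, 2 genes (Pf4 and C1qa) were lower in the mutant in 5 of 5 pairs and 0 were higher in 5 of 5, where 4.89% of all genes were lower and 5.91% higher in every pair. The log2 difference was above 0 for 12 genes (40.0%) and below 0 for 18, beside 49.1% of all genes above 0. The count above 0 was 7 without mutant 3 and 20 without mutant 5. Its median was -0.03 over the 30 genes and -0.002 over all genes. For 28 of the 30 the difference was under 0.2 in size, and for 25 the 95% interval lay within 0.5 on either side of 0. The data therefore bound these differences rather than showing the groups to be alike. In bulk tissue, fewer macrophages and less RNA per macrophage cannot be told apart.

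**Figure D1:**
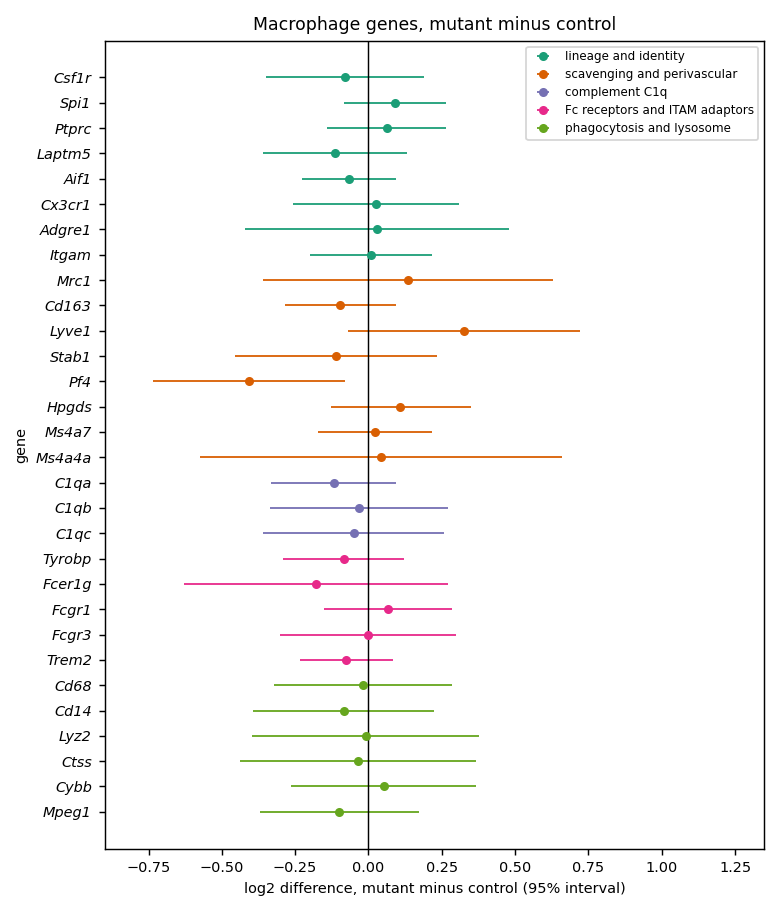
Log2 difference of each of the 30 macrophage genes, mutant minus control, with its 95% interval from limma (points and bars, 5 arrays a group, coloured by role). All intervals but that of Pf4 (-0.41, interval -0.74 to -0.08) cross 0.

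Among the lineage and identity genes the mutants and controls shared nearly the same level. Csf1r, the receptor that macrophages need to survive, read 7.45, 7.75, 7.84, 7.55 and 7.12 in mutants 1 to 5, and 7.80, 7.72, 7.64, 7.57 and 7.40 in controls 1 to 5. Mutant 5 was the lowest array and mutant 3 the highest, so the mutants spanned the controls. Its log2 difference was -0.08 (interval -0.35 to 0.19, adjusted p 0.888 by limma). Spi1, which encodes PU.1, read 5.89, 5.97, 5.79, 6.12 and 5.87 in the mutants, and 5.68, 5.85, 5.92, 5.83 and 5.91 in the controls. Its values lay close together in both groups, with a difference of 0.09 (interval -0.09 to 0.26). Laptm5, a lysosomal membrane protein of leukocytes, read 8.27, 8.48, 8.48, 8.42 and 7.96 in the mutants, and 8.71, 8.52, 8.34, 8.20 and 8.41 in the controls. Here mutant 5 was again the lowest and control 1 the highest array, and the difference was -0.11 (interval -0.36 to 0.13).

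Adgre1 had the widest range of the identity genes, 1.13 on the log2 scale, and it is given in full because it followed the other macrophage genes most closely, a choice made after its values were seen. It read 6.52, 6.74, 6.91, 6.59 and 5.85 in the mutants, and 6.99, 6.75, 6.55, 6.08 and 6.10 in the controls. Mutant 5 and controls 4 and 5 were low, the remaining arrays were high, and the group means differed by 0.03 (interval -0.42 to 0.48). Cx3cr1, the fractalkine receptor, differed by 0.03 and had its lowest value in mutant 5 as well. The differences were 0.06 for Ptprc, the pan-leukocyte phosphatase CD45, and 0.01 for Itgam, the integrin subunit CD11b. Aif1, at background, stood at -0.07.

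The scavenging and perivascular genes held the largest differences in both directions, and none passed. Pf4, a chemokine stored in platelets and also made by embryonic macrophages, read 6.52, 6.50, 6.59, 6.61 and 6.21 in the mutants, and 7.16, 6.52, 7.39, 6.67 and 6.72 in the controls. Controls 1 and 3 stood high and mutant 5 low, while control 2 lay among the mutants. The group values were 6.49 ± 0.16 in the mutants and 6.90 ± 0.36 in the controls (SD, n = 5 each), a log2 difference of -0.41 with an unadjusted p of 0.0184 and an adjusted p of 0.575 by limma. Lyve1, a hyaluronan receptor of perivascular macrophages and of lymphatic endothelium, read 8.17, 8.03, 8.12, 8.21 and 7.41 in the mutants, and 8.32, 7.57, 7.52, 7.44 and 7.46 in the controls. Mutants 1 to 4 and control 1 stood together at a high level, and mutant 5 lay with the other controls. Its difference was 0.33 (interval -0.07 to 0.72, adjusted p 0.675 by limma).

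The widest ranges over the 10 arrays were those of Ms4a4a and Mrc1, and they lay within the groups. Ms4a4a, a tetraspan membrane protein of macrophages, read 6.57, 6.55, 6.82, 6.05 and 5.28 in the mutants, and 6.94, 6.29, 6.31, 5.57 and 5.95 in the controls. The range was 1.66 on the log2 scale, from mutant 5 to control 1, while the groups differed by 0.04 (interval -0.57 to 0.66). Mrc1, the mannose receptor, read 8.30, 8.45, 8.59, 8.27 and 7.32 in the mutants, and 8.55, 8.29, 8.08, 7.72 and 7.62 in the controls. Mutant 5 and controls 4 and 5 were again the 3 low arrays, and the difference was 0.13 (interval -0.36 to 0.63). Stab1, the scavenger receptor stabilin-1, differed by -0.11 and Hpgds, the haematopoietic prostaglandin D synthase, by 0.11. Ms4a7 and Cd163, both at background, stood at 0.02 and -0.10.

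The C1q genes encode the A, B and C chains of the molecule that opens the classical complement pathway and tags cell debris. C1qa read 7.11, 7.27, 6.91, 7.0 and 6.82 in the mutants, and 7.13, 7.39, 7.09, 7.08 and 7.01 in the controls. C1qb read 7.26, 7.72, 7.41, 7.46 and 6.90 in the mutants, and 7.57, 7.61, 7.40, 7.20 and 7.14 in the controls. C1qc read 7.35, 7.70, 7.49, 7.49 and 7.07 in the mutants, and 7.81, 7.64, 7.57, 7.15 and 7.17 in the controls. All 3 had their lowest value in mutant 5, and their groups overlapped over most of the range. Their differences were -0.12 for C1qa, -0.03 for C1qb and -0.05 for C1qc, with adjusted p between 0.764 and 0.969 by limma.

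The Fc receptor and adaptor genes pass antibody and lipid signals into the cell through the immunoreceptor tyrosine-based activation motif (ITAM). Trem2, a receptor for lipids and debris, read 6.37, 6.40, 6.62, 6.49 and 6.39 in the mutants, and 6.44, 6.64, 6.48, 6.53 and 6.55 in the controls. This was the narrowest range of the 30 genes, 0.27 on the log2 scale. Tyrobp, the adaptor DAP12 through which TREM2 signals, read 6.14, 6.27, 6.52, 6.41 and 6.20 in the mutants, and 6.26, 6.42, 6.55, 6.22 and 6.52 in the controls. The groups of both genes overlapped, with differences of -0.08 for Trem2 and -0.09 for Tyrobp. Fcer1g, the common Fc receptor gamma chain, varied more, over a range of 1.22, and differed by -0.18 (interval -0.63 to 0.27). The IgG receptor genes Fcgr1 and Fcgr3 differed by 0.07 and -0.002.

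Genes of phagocytosis and the lysosome had differences between -0.10 and 0.05. Mpeg1, a pore-forming protein of phagosomes, read 6.10, 6.47, 6.48, 6.24 and 6.01 in the mutants, and 6.54, 6.57, 6.46, 6.05 and 6.17 in the controls. It was low in mutants 1 and 5 and in controls 4 and 5. Cd14, a co-receptor for bacterial lipopolysaccharide, read 5.23, 5.33, 5.43, 5.17 and 5.15 in the mutants, and 5.12, 5.73, 5.70, 5.24 and 4.94 in the controls. Most of these Cd14 values lay below background, and those above it were mutant 3 and controls 2 and 3. The difference was -0.10 for Mpeg1 and -0.09 for Cd14. It was -0.02 for Cd68, a lysosomal glycoprotein, -0.01 for Lyz2, the lysozyme gene, -0.04 for Ctss, cathepsin S, and 0.05 for Cybb, the catalytic subunit of the phagocyte NADPH oxidase.

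**Figure D2:**
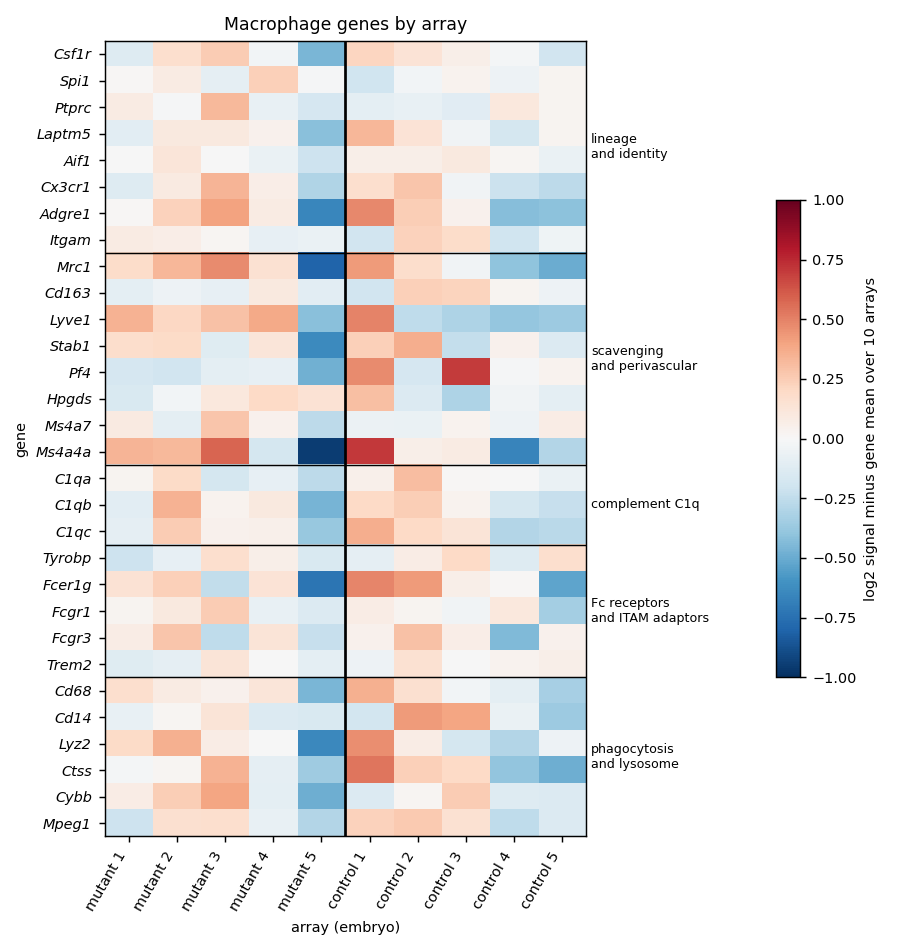
Log2 signal of each macrophage gene (rows, grouped by role) in each array (columns, mutants left, controls right), minus the gene's mean over the 10 arrays. Blue cells are frequent in the columns of mutant 5 and controls 4 and 5, where Adgre1 read 5.85, 6.08 and 6.10. Some genes lie above their mean there, such as Hpgds in mutant 5 (6.26), Stab1 in control 4 (8.35) and Tyrobp in control 5 (6.52).

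The spread lay between embryos of the same genotype. The mean log2 signal over the 30 genes was 6.53, 6.63, 6.64, 6.54 and 6.16 in mutants 1 to 5, and 6.70, 6.65, 6.57, 6.36 and 6.35 in controls 1 to 5. Mutant 5 was the lowest array, controls 4 and 5 were next, and the other 7 lay between 6.53 and 6.70. The groups averaged 6.50 ± 0.20 in the mutants and 6.52 ± 0.16 in the controls (SD, n = 5 each), a difference of -0.02 beside a spread within groups of 0.18. Without mutant 5 the mutants averaged 6.59, a difference of 0.06. No p is given for this mean, since the genes were chosen with results of these data known. The median spread within groups was 0.25 for the 30 genes and 0.13 for the 14418 genes above background.

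Mutant 5 was low across the roles. In 24 of the 30 genes it read below all 4 other mutants, against 28.2% of all genes, and in 20 it was the lowest of the 10 arrays, against 17.3% of all genes. The median deficit from the mean of the other mutants was -0.37, and Ms4a4a (-1.22), Mrc1 (-1.08) and Adgre1 (-0.84) were furthest down. Hpgds alone was not lower there, at 0.11 above the other mutants. By role, the mean in mutant 5 was 6.27 for lineage genes, 5.99 for scavenging genes, 6.93 for C1q, 6.22 for Fc receptors and adaptors, and 5.80 for phagocytosis genes. Each of these was the lowest of the 10 arrays.

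Among the controls, the arrays numbered 4 and 5 read lower than those numbered 1 to 3 for 26 of the 30 genes, where 54.9% of all genes did. Both lay below all of controls 1 to 3 for 15 genes, against 12.1% of all genes. The median difference was -0.27, and it was largest for Ctss (-0.77), Ms4a4a (-0.76) and Adgre1 (-0.67). For the mean of the 30 genes, mutant 4 stood within the range of mutants 1 to 3, and so it did for Adgre1 (6.59, against 6.52 in mutant 1). For Ctss and Ms4a4a mutant 4 lay below all of them, and for Mrc1 narrowly so (8.27, against 8.30 in mutant 1). The number on a label may stand for a shared day or litter, but the labels do not say so. Mutants minus controls, the 30-gene mean differed by -0.04 when numbers 1 to 3 were taken alone and by -0.004 for numbers 4 and 5.

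**Figure D3:**
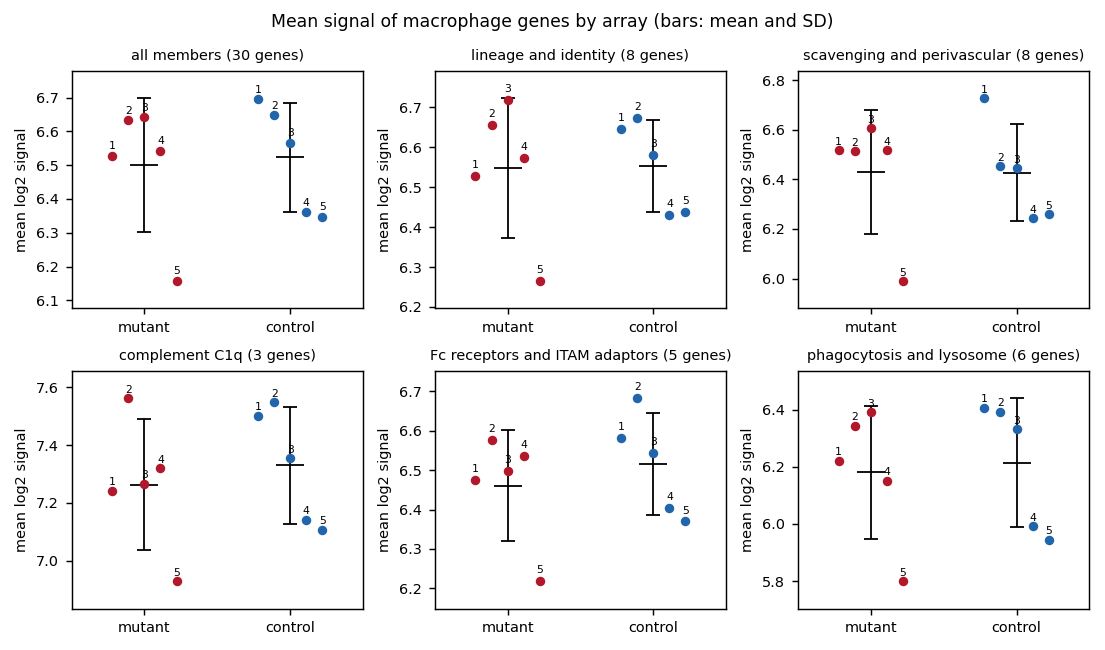
Mean log2 signal over all 30 macrophage genes and over each role, one point an array with its replicate number, mutants left of controls; bars give the group mean and SD. Mutant 5 is the lowest point in every panel, at 6.16 over all 30 genes, and the group means lie within 1 SD of each other.

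Many of the macrophage genes varied together over the arrays. Over the 435 pairs of genes the median Pearson r across the 10 arrays was 0.41, where the median over all pairs of the 19938 genes was 0.01. The r was 0.5 or more for 40.5% of the pairs of macrophage genes, against 9.6% of all pairs. After each group's mean was subtracted the median was 0.44, and without mutant 5 it was 0.27. These values describe 10 arrays that share their normalisation, and genes are not independent replicates. The highest r of any pair was 0.98, between Adgre1 and Mrc1, followed by 0.94 between C1qb and C1qc.

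Set against the mean of the other 29 genes, the 30 fell along a wide scale. For 12 genes r was 0.8 or more: Adgre1 (0.97), Mrc1 (0.96), C1qc (0.93), C1qb (0.92), Csf1r (0.91), Cd68, Ms4a4a, Cx3cr1, Laptm5, Mpeg1, Ctss and Lyz2. Without mutant 5, 9 genes reached 0.8, all of them among the 12. Adgre1 (0.98), C1qc (0.93), Ctss (0.93) and Mrc1 (0.93) were then the closest to the rest. For 6 genes r was under 0.3: Spi1 (-0.16), Hpgds (-0.02), Cd163 (0.13), Ptprc (0.17), Trem2 (0.23) and Tyrobp (0.23). Of these, Cd163 was not above background in any array, while Spi1, Hpgds, Ptprc, Trem2 and Tyrobp were above it in all. Their levels were near those of the lymphocyte markers Rag1, Cd79b and Cd3e, at 6.52, 5.99 and 5.86 in the controls. Some genes with an r of 0.8 or more had like levels in the controls: Cd68 (6.57), Adgre1 (6.49), Lyz2 (6.47), Mpeg1 (6.36) and Ms4a4a (6.21). The others of that r read 7.38 or more there. Whether signal in this range is specific to the gene was not tested. C1qa, at 0.59, followed C1qb (r 0.75) and C1qc (r 0.63) less closely than these followed each other.

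**Figure D4:**
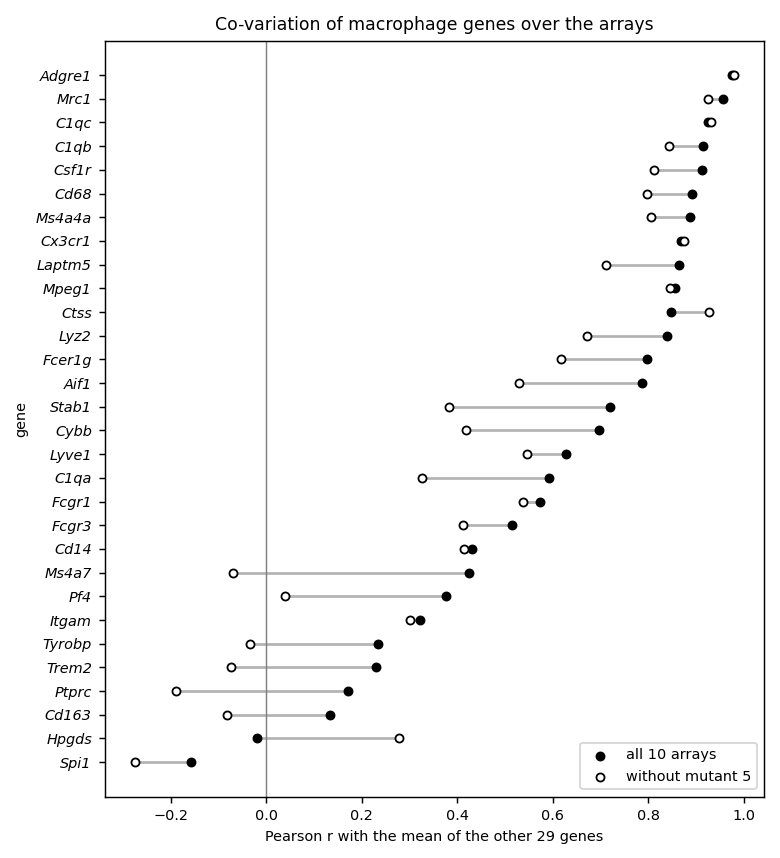
Pearson r of each macrophage gene with the mean of the other 29 over the 10 arrays (filled) and without mutant 5 (open), ordered by the filled value. Adgre1, C1qc and Cx3cr1 hardly move without mutant 5, whereas Ms4a7 goes to -0.07 and Ptprc to -0.19.

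Since PU.1 controls many macrophage genes, the promoters of the 30 were searched for the 8 letters GAGGAAGT, a form of the sequence that this factor is known to prefer, and for their reverse complement. RefSeq promoters of build GRCm38.p6, each of 300 bases from 250 before to 50 after a start site, were at hand for 23 of the 30 genes. The letters were found in 4 of these 23 genes (17.4%), against 3.69% of all 27025 genes with such a promoter. Both strongly co-varying genes (C1qc and Ctss) and weakly co-varying ones (Hpgds and Pf4) were among the 4. Their promoters are printed 5′ to 3′ on the gene's strand to show where the match lies, with the matched letters in capitals. Counted from the start site, the first matched base is at -195 in C1qc (chr4:136892865-136893164, minus strand), -2 in Ctss (chr3:95526536-95526835, plus strand), -49 in Hpgds (chr6:65144681-65144980, minus strand) and -10 in Pf4 (chr5:90772185-90772484, plus strand). It reads as the reverse complement in C1qc, Ctss and Pf4. A match of letters is not evidence of binding, and its absence from this window says nothing about the factor.
C1qc: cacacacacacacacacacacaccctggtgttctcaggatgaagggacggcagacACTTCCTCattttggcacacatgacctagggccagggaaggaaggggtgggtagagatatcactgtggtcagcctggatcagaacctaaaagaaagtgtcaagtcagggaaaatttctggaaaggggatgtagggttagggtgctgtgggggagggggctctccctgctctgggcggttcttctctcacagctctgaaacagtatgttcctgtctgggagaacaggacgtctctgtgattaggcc
Ctss: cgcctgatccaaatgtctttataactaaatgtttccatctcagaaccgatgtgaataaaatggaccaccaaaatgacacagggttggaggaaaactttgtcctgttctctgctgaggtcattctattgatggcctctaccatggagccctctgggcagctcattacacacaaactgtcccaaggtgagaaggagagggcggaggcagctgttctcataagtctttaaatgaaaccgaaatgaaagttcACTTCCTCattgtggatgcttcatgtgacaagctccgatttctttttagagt
Hpgds: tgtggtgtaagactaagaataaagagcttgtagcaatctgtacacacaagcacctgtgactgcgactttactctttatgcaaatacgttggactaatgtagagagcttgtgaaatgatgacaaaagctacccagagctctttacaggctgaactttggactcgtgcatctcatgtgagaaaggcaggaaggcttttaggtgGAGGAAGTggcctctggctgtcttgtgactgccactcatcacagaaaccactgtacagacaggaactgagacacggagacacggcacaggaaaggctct
Pf4: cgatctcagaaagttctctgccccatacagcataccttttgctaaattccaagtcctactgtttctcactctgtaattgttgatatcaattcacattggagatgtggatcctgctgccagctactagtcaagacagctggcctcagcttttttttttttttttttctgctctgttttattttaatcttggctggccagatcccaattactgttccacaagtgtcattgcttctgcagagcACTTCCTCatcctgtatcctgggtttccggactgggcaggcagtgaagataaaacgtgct

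The genes outside the 30 whose signal most resembled their mean were a mixed set. Among 14394 other genes above background, the 12 with the highest r over the 10 arrays were ranked, and no unnamed gene was passed over. First was Ms4a6c (r 0.96), of the same membrane protein family as Ms4a4a and Ms4a7, at 5.77 ± 0.37 in the mutants and 5.78 ± 0.32 in the controls (SD, n = 5 each). It kept an r of 0.94 without mutant 5. Next came Cdyl2 (0.95), a chromodomain protein, Fbl (0.94), the nucleolar protein fibrillarin, and Krt8 (0.94), a keratin of simple epithelia. They were followed by Cers2, a ceramide synthase, Lbp, which binds lipopolysaccharide, F11r, a junctional adhesion molecule, and Tmem39a, at 0.94 to 0.93. Pla2g15, a lysosomal phospholipase, Spint2, a protease inhibitor of epithelia, Tial1, an RNA-binding protein, and Rrp8, of ribosomal RNA processing, closed the 12 at 0.92 to 0.93. An r of 0.8 or more was reached by 1.56% of the genes ranked.

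Further macrophage genes, taken from lists by function, were not called either. Over 18 lists with 213 measured genes, other cell types included, 0 passed, and the smallest adjusted p was 0.569 by limma. The genes named with a difference in each list are its 2 of smallest p, which need not have the largest differences. Of the lineage receptors, transcription factors and CSF1R ligands, 5 of 13 were higher and 8 lower in the mutants, with a median log2 difference of -0.01. Zeb2, a transcription factor also of mesenchyme, stood at 0.26 and Irf5 at -0.11. Of 27 other leukocyte and phagocyte genes 5 were higher and 22 lower, with a median of -0.08. The NADPH oxidase subunits Ncf1 (-0.25) and Cyba (-0.27) had the smallest p among them. Scavenger and tissue-resident macrophage genes had 7 of 15 higher and a median of -0.02, with Cbr2 at -0.28 and Marco at -0.17. Marco was not above background in any array. Microglia genes had 4 of 8 higher and a median of -0.01, with Olfml3 at -0.30 and Tmem119 at -0.24, both of which mesenchymal cells also express.

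Chemokines and their receptors had 7 of 16 higher and a median of -0.02, with Ccl2 at -0.22 and Ccl7 at -0.21. Complement components and regulators other than C1q had 4 of 6 higher and a median of 0.03, with C4b at 0.09 and Serping1 at 0.08. Of these 6 genes 4, C4b among them, were not above background in any array. Signalling genes of the ITAM pathway and its inhibitors had 6 of 13 higher and a median of -0.002, with Plcg2 at -0.20 and the Fc receptor Fcgr4 at 0.09. Fcgr4 was not above background in any array. Lysosomal enzymes, which all cells use, had 7 of 13 higher and a median of 0.01, with Ctsd at -0.16 and Grn at -0.17. In these lists 6 genes followed the mean of the 30 macrophage genes with an r of 0.8 or more. They were C3ar1 (0.90), the receptor for complement fragment C3a, Lgmn (0.87), a lysosomal protease, and Fcrls (0.86), an Fc receptor-like protein, with Cd53 (0.86), Ccl3 (0.85) and Mertk (0.84), a receptor for dying cells. Such an r was not limited to macrophage genes. In the lists that follow it was reached by 6 of 10 immediate early genes, and by Sox5 (0.90) of cartilage, Mmrn1 (0.84) of lymphatic endothelium and Ms4a1 (0.80) of lymphocytes.

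Markers of other leukocytes were above background only in part. Of 8 mast cell markers 4 were not above background in any array, and the same was true of 5 of 10 neutrophil markers and 5 of 8 lymphocyte markers. Above background in all 10 arrays were 2 mast cell markers (Gata2 and Hdc), 1 neutrophil marker (Prtn3) and 3 lymphocyte markers (Rag1, Cd79b and Cd3e). The median differences of these lists were 0.02, -0.03 and -0.01, with 5, 3 and 3 genes higher in the mutants. Their genes of smallest p were Tpsb2 (0.06) and Tpsab1 (-0.05), Ly6g (0.18) and Mpo (-0.23), and Cd3d (0.06) and Cd79b (-0.06). Of these, Tpsab1, Ly6g and Cd3d were not above background in any array.

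Pf4 had a higher r with platelet genes than with the other macrophage genes. The mean of 5 measured megakaryocyte and platelet markers was 7.08, 6.74, 6.88, 6.80 and 6.85 in the mutants, and 7.21, 7.02, 7.83, 6.90 and 7.24 in the controls. Control 3, the highest array of Pf4, was also the highest of this list, and all 5 markers were above background in all arrays. All 5 were lower in the mutants by sign and 0 passed, with a median of -0.36. Compared by number, which no label states to be a pairing, their mean was lower in the mutant in 5 of 5 cases. Of all single genes 4.89% were lower in each. Itga2b and Itgb3, which encode the fibrinogen receptor of platelets, stood at -0.41 and -0.36, and Ppbp, another platelet chemokine named after its values were seen, at -0.57. Across the 10 arrays Pf4 had an r of 0.83 with the mean of these markers and of 0.38 with the other 29 macrophage genes. After group means were subtracted the values were 0.73 and 0.46, and without mutant 5 they were 0.85 and 0.04. Without controls 1 and 3 the r with the platelet markers was 0.40. Pf4 was the only one of the 30 genes with an r above 0.5 to that list, and the part of platelets in its difference was not tested.

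Endothelial genes were set beside Lyve1, Stab1 and Mrc1, which endothelial cells also express. The lymphatic list had 4 of 6 genes higher in the mutants and a median of 0.05, with Pdpn at 0.14 and Prox1 at 0.06. Lyve1 had an r of 0.06 with its mean over the arrays. The genes of the lymphatic list went opposite ways in their r with the mean of the macrophage genes. It was 0.84 for Mmrn1 and 0.47 for Flt4, but -0.12 for Nrp2, -0.36 for Prox1, -0.67 for Pdpn and -0.78 for Reln. A mean over such genes cannot show whether Lyve1 followed single ones, and its r with each was not computed. The blood endothelial list had 8 of 14 genes higher and a median of 0.09, with Flt1 at 0.28 and Kdr at 0.19, receptors for VEGF. With this list Lyve1, Stab1 and Mrc1 had an r of 0.77, 0.75 and 0.78, and of 0.74, 0.49 and 0.62 without mutant 5. Other macrophage genes had values as high over the 10 arrays, among them Cd68 (0.85), Lyz2 (0.79), Ms4a4a (0.75) and Fcer1g (0.74). Its mean was 8.65, 8.49, 8.43, 8.47 and 8.20 in the mutants, and 8.51, 8.43, 8.41, 8.37 and 8.32 in the controls, so mutant 5 was the lowest array here too. The difference of this mean was 0.04 with mutant 5 and 0.10 without it. The part of endothelial cells in the signal of Lyve1, Stab1 and Mrc1 was not tested. Red cell genes had 2 of 9 higher and a median of -0.15, with Tfrc at 0.32 and Hba-x at -0.26.

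The means of the neural and cartilage markers were also at an extreme in mutant 5. The mean of 17 neural markers was 8.36, 8.23, 8.34, 8.18 and 9.44 in the mutants, and 7.995, 7.78, 8.37, 8.57 and 8.29 in the controls. Control 4, another array of low macrophage mean, came next after mutant 5. Mutant 5 was the highest array in 13 of the 17, and 15 of them were above background in all arrays. En2, a gene of the midbrain and hindbrain named after its values were seen, read 8.81 in mutant 5 and 7.05 in control 4. It was below background in the other arrays. Gpm6a read 10.58 and 8.61 in these arrays, against 6.04 to 7.81 in the others. By genotype 15 of 17 were higher, with a median of 0.26, and Elavl4 stood at 0.56 and Elavl3 at 0.52. The difference of the list mean was 0.31 with mutant 5 and 0.08 without it, and 0.26 for numbers 1 to 3 alone. Of the macrophage genes, 28 of 30 had a negative r with the mean of the neural markers, and the share over all genes was not computed. Without mutant 5 this r changed unevenly. It went from -0.78 to -0.39 for Csf1r, from -0.73 to -0.21 for Aif1 and from -0.13 to 0.50 for Ptprc. For Laptm5 it went from -0.89 to -0.77 and for Mpeg1 from -0.71 to -0.68. The mean of 15 cartilage markers was 7.92 in mutant 5 and 8.10 to 8.62 in the other mutants, against 8.22 to 8.80 in the controls. All 15 were lower in the mutants by sign, with a median of -0.32, and Col2a1 stood at -0.53 and Otor at -0.32. Compared by number, the mutant had the lower mean of these markers in 5 of 5 cases, where 4.89% of all single genes were lower in each. No label states that arrays of the same number are paired. The part of tissue makeup in the low macrophage signal of mutant 5 and control 4 was not tested.

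Immediate early genes, which many stimuli induce within minutes, separated the arrays numbered 1 to 3 from those numbered 4 and 5. Their mean was 8.75, 8.55, 8.41, 7.05 and 6.88 in the mutants, and 8.74, 8.57, 8.62, 7.04 and 7.01 in the controls. By genotype 3 of 10 were higher, with a median of -0.08, and Junb and Ier2 stood at -0.20 and -0.19. The difference of the list mean was -0.07 over all arrays, -0.07 for numbers 1 to 3 alone and -0.06 for numbers 4 and 5 alone. It was 0.20 without mutant 5, which leaves mutant 4 alone beside controls 4 and 5 among the low arrays. The macrophage mean was low in 3 of the 4 arrays with low immediate early genes, and mutant 4 was the exception. An r above 0 with the mean of this list was found for 27 of the 30 macrophage genes. The share over all genes was not computed, and 54.9% of all genes were lower in controls 4 and 5 than in controls 1 to 3. The median r of the 10 immediate early genes with the 30-gene mean was 0.82. Without mutant 5, the r with the list mean was 0.83 for Ms4a4a, 0.81 for Ctss and 0.75 for Adgre1. It was -0.24 for Trem2 and -0.42 for Spi1. The list splits the arrays by number, and mutant 5 and controls 4 and 5 were low both for it and for the macrophage mean. The part of the immediate early genes in the macrophage signal was not tested.

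**Figure D5:**
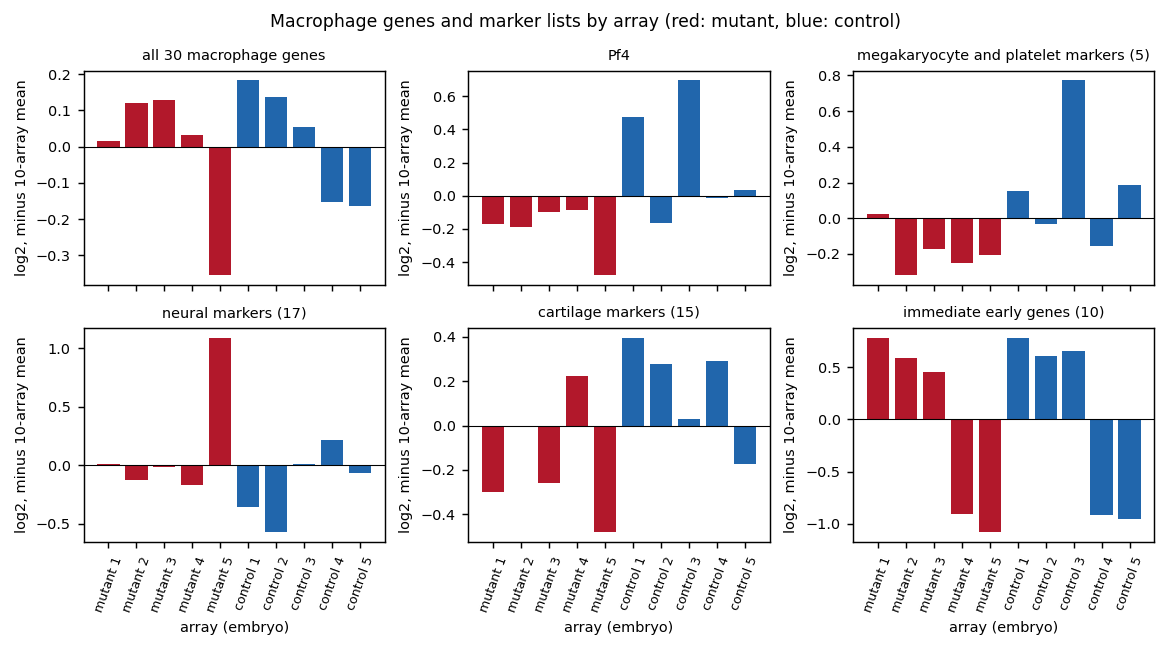
Mean log2 signal by array for the 30 macrophage genes, Pf4 and 4 marker lists, each minus its mean over the 10 arrays (red bars mutants, blue bars controls; number of genes in brackets). Mutant 5 is lowest for the macrophage genes (6.16) and highest for the neural markers (9.44), and control 3 is highest for Pf4 (7.39) and for the platelet markers (7.83).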

How the data were processed

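RNA from the periotic tissue of 10 embryos was labelled from 300 ng of total RNA, per the labels' protocols. The deposited values are log2 signals that the authors made by RMA with Expression Console 1.1 from Affymetrix, according to the submitters' processing notes. They name no probe file version. The log2 scale was read from the values, and RMA compresses small differences at low signal. An array has no read depth, so the number of arrays limits the precision. Of 35557 probe sets, 21789 had 1 gene symbol in the platform annotation and were tested, 1621 had several symbols and 12147 were not listed. Names were updated through RefSeq (GRCm38.p6) for 21698.

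The genotypes were tested against each other by limma 3.58.1 under R 4.3.3 (eBayes with a trend, two-sided, Benjamini-Hochberg over 21789 probe sets, threshold 0.05), without a block. Correlations were computed in Python 3.11.15 as descriptions. The fit was tested on simulated data. Deviations of a mutant and a control of the same number correlated at 0.122 to 0.247, and those of other numbers at -0.392 to 0.382. All same-number values exceeded 0.1, which meets the bound for pairing. Some values of other numbers exceeded it too, and that of mutant 5 with control 4 (0.382) was above every same-number value. The bound therefore does not set the pairs apart, and no label states what arrays of 1 number have in common. The printed differences and p-values are from the fit without the block, and the replicate block is an alternative. The labels call the arrays biological replicates, 1 embryo each.

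The 30 genes and the lists were chosen with earlier results of these data known. Values in every array are given for the 2 genes of smallest p in each role, the 2 of widest range, Csf1r and the C1q genes; lists show their 2 genes of smallest p. Alternatives were other eBayes settings, repeated quantile normalisation, a filter on dim probe sets, the replicate block, array weights, other choices of members, each array left out and the numbered subsets alone.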

Additional observations from a re-analysis of the deposited data

Results flagged for a closer look

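Dixon's criterion for a group of 5 arrays marked 9 of 72 groups, where chance marks about 1 in 20, or 3.6. In mutant 5 the array lay far below the other mutants for the mean of all 30 macrophage genes (6.157), the mean of the scavenging genes (5.99) and the mean of the Fc receptor and adaptor genes (6.218). The same array was marked as low for Mrc1 (7.318), Lyve1 (7.406), Pf4 (6.212) and Cd68 (6.099). These marks are not independent, since the means hold the single genes. Lyve1 in control 1 (8.32) lay far above the other controls, and Cd163 in mutant 4 (4.305) above the other mutants, a value below background.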

How the results depend on the processing

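The count of macrophage genes past the threshold was 0 in every fit by limma, the replicate block included, where it was also 0, and the smallest adjusted p over 564 gene values was 0.400. The difference of the 30-gene mean stayed between -0.07 and 0.06 and the median of the gene differences between -0.08 and 0.05. The number of genes higher in the mutants was 7 to 20 when single arrays were left out, with 7 without mutant 3 and 20 without mutant 5. The sign of the small differences thus depends on which embryos are included. Leaving out mutant 5 also leaves mutant 4 alone beside controls 4 and 5, and the embryo and its number cannot be told apart here. The median r of gene pairs was 0.32 by Spearman's rho, 0.47 over the 22 genes above background in all arrays, and 0.27 (without mutant 5) to 0.48 (without control 1) when single arrays were left out. For 11 genes the sign of the difference held in every alternative run: Spi1, Laptm5, Aif1, Mrc1, Lyve1, Pf4, Hpgds, C1qa, Tyrobp, Fcer1g and Trem2. Their size did not hold as well: leaving out single arrays gave -0.333 (without control 5) to -0.019 (without mutant 5) for Fcer1g, 0.026 (without control 5) to 0.35 (without mutant 5) for Mrc1, -0.171 to -0.023 for Laptm5, 0.27 to 0.49 for Lyve1 and -0.501 to -0.285 for Pf4. It was under 0.2 in size in every such fit for Spi1, Aif1, Hpgds, C1qa, Tyrobp and Trem2. The sign changed in 71 of the 564 values, none over 0.221 in size. With array weights the differences were 0.01 for Csf1r, 0.082 for C1qb, 0.071 for C1qc, 0.071 for Fcgr3, 0.09 for Cd68, 0.141 for Lyz2 and 0.099 for Ctss. After a further quantile normalisation Cx3cr1 stood at -0.001. In the arrays numbered 1 to 3 alone the values were -0.039 for Cx3cr1, -0.038 for Adgre1, -0.016 for Itgam and 0.085 for Lyz2. In those numbered 4 and 5 alone they were -0.188 for Ptprc, 0.007 for Cd163, -0.119 for Ms4a7, -0.09 for Ms4a4a, 0.018 for C1qb, 0.117 for C1qc, 0.151 for Fcgr3, 0.048 for Cd68, 0.067 for Cd14, 0.221 for Ctss, -0.16 for Cybb and 0.015 for Mpeg1. Leaving out single arrays gave ranges of -0.153 to 0.026 for Csf1r, -0.013 to 0.111 for Ptprc, -0.055 to 0.104 for Cx3cr1, -0.074 to 0.196 for Adgre1, -0.039 to 0.067 for Itgam and -0.183 to 0.035 for Stab1. They were -0.044 to 0.091 for Ms4a7, -0.116 to 0.287 for Ms4a4a, -0.123 to 0.08 for C1qb, -0.129 to 0.039 for C1qc, -0.009 to 0.11 for Fcgr1 and -0.114 to 0.071 for Fcgr3. For Cd68 the range was -0.105 to 0.094, for Cd14 -0.186 to 0.011, for Lyz2 -0.1 to 0.15, for Ctss -0.162 to 0.094 and for Cybb -0.04 to 0.181. The cause of these sign changes was not tested. Taking the mean of all probe sets of a gene changes nothing, as each gene had 1. Signal at background limits Aif1, Cd163 and Ms4a7.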

Other observations

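At the other end of the ranking by r with the 30-gene mean stood 12 genes that were all highest in mutant 5, listed here after their values were seen. Nxph1, which encodes a ligand of neurexins, had an r of -0.92 and read 7.10 in mutant 5, with 5.77 ± 0.79 in the mutants and 5.58 ± 0.30 in the controls (SD, n = 5 each). Sez6, a neuronal membrane protein, had an r of -0.92 and read 8.12 there, with group means of 7.14 in the mutants and 6.95 in the controls. Add2, an adducin of the membrane skeleton, had an r of -0.92, and Msi2, an RNA-binding protein of progenitor cells, one of -0.92. Ppp6r2, a regulatory subunit of a phosphatase, had the lowest r, -0.94. Paqr4 (-0.935), Eml6 (-0.933) and Psd (-0.931) came next to it. Arl2bp, Bcl2l1, Dtx4 and Sap30, at -0.919 to -0.915, completed the 12. Their r without mutant 5 lay between -0.87 and -0.81.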
